A study of Mus musculus with 7 samples.

Results

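Notch ligands, Notch receptors, the target gene Hes1 and the fringe glycosyltransferases were examined in purified Paneth cells (PCs) of mice given tumour necrosis factor (TNF). The gene group was a fixed list of 10 symbols, matched to the Ensembl identifiers of the count table: the ligand genes Dll1, Dll4, Jag1 and Jag2, the receptor genes Notch1, Notch2 and Notch3, the target gene Hes1, and the fringe genes Lfng and Mfng. All 10 genes were found among the 55414 identifiers, and all 10 passed the filter on low counts that 14329 genes passed. C57BL/6J mice without any allele or transgene in the labels received PBS (3 libraries, the control) or TNF (4 libraries), the small intestine was taken 15 h later, and PCs were purified with a cell sorter. Each library came from another mouse, and single-end sequencing gave between 15511455 and 19193721 counted reads per library. The dose, the sort antibodies, the sex and age of the mice and the intestinal segment were not given in the sources used here.

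Notch signalling passes between touching cells. A Delta or Jagged ligand on the sending cell binds a Notch receptor on its neighbour, ADAM and gamma-secretase proteases then free the intracellular domain of the receptor, and this domain joins RBPJ and Mastermind proteins on DNA to switch on genes such as Hes1. In the crypt, PCs present Delta ligands to the stem cells wedged between them, Notch activity in stem and progenitor cells represses the secretory fate gene Atoh1 through HES1, and fringe enzymes extend sugars on the receptors and so set how well they answer Delta or Jagged ligands.

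After TNF the Delta ligand genes Dll1 and Dll4, the receptor gene Notch1 and the fringe gene Lfng fell between 5.75-fold and 9.86-fold, and Hes1 fell by 0.46 on the log2 scale. No member passed the test for a rise. Jag1, Jag2, Notch2, Notch3 and Mfng did not pass in either direction. Genes were called at a Benjamini-Hochberg adjusted p under 0.05 in an edgeR quasi-likelihood test across all tested genes. By that rule 5 of the 10 members were called and all 5 were lower. DEGs made up 59.6% of all tested genes, 30.1% lower and 29.5% higher, so the share of members called in either direction was no larger than that of all genes. The count of members higher after TNF was 0, also at an unadjusted edgeR p under 0.05 and at a DESeq2 adjusted p under 0.05. Mfng came nearest, with an unadjusted edgeR p of 0.0505 and a DESeq2 adjusted p of 0.0577, and an unadjusted DESeq2 p was not used. The ranges of the groups did not overlap for 5 members, against 60.7% of all tested genes. The median log2 fold change of the members was -0.35 and that of all tested genes was 0.0017. What set Dll1, Dll4, Notch1 and Lfng apart from the typical gene was size: only 3.99%, 2.16%, 3.04% and 2.99% of tested genes, respectively, had a lower log2 fold change. The change is one of RNA per library, in which fewer cells of a type and less RNA per cell cannot be told apart.

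**Figure D1:**
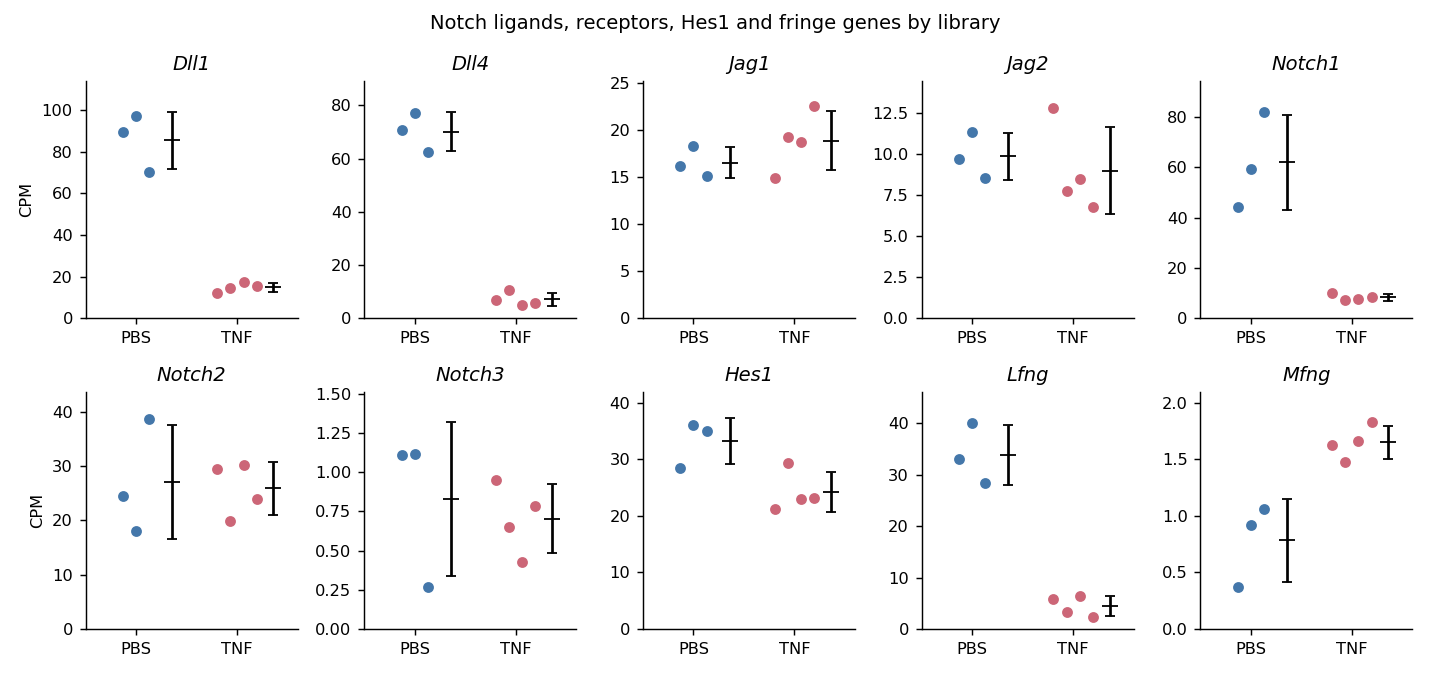
Normalised expression (CPM, vertical axis from 0, scaled per gene) of the 10 members in each of the 3 PBS libraries (blue) and 4 TNF libraries (red), with the mean and SD in black. Dll1, Dll4, Notch1 and Lfng lie lower after TNF with a gap between the groups, and Jag1, Jag2, Notch2 and Notch3 share their range. Hes1 lies lower after TNF with 1 TNF library inside the PBS range. Mfng, near the limit of detection and not called, lies higher after TNF with a gap (at most 1.06 against at least 1.47 CPM).

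The bases upstream of the 4 members that fell most are shown because these genes fell together. The promoter sequences are those of RefSeq on GRCm38.p6 (gene positions elsewhere are on GRCm39, so the coordinates differ between them), written 5′ to 3′ on the strand of the gene. Capitals mark matches, on either strand, to the RBPJ core TGGGAA or to the E-box CAGCTG, searched in the 250 bases before each start. The Lfng stretch runs from 250 to 22 bases before the start (chr5:140607091-140607319, plus strand), that of Dll1 covers all 250 bases before the outer of its start sites (chr17:15376933-15377182, minus strand), that of Notch1 covers the 250 bases before the start (chr2:26503823-26504072, minus strand) and that of Dll4 runs from 250 to 96 bases before it (chr2:119325534-119325688, plus strand).
Lfng: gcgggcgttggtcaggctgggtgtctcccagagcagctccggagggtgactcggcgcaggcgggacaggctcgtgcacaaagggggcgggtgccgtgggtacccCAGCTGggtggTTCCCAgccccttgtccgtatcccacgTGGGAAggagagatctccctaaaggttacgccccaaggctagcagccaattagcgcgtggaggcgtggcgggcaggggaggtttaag
Dll1: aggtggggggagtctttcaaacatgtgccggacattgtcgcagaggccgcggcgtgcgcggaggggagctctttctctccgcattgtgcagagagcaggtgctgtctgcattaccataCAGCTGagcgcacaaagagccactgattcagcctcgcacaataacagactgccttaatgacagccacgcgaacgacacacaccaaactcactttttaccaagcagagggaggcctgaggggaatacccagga
Notch1: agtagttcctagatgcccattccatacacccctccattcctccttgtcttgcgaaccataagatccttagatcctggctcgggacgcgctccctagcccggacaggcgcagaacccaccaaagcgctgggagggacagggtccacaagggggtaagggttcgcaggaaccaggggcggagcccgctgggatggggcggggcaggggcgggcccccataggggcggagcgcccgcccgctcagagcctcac
Dll4: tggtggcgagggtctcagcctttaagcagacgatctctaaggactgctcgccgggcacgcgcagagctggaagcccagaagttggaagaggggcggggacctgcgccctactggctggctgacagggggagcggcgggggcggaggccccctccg
Lfng held 2 RBPJ core matches, with first bases 135 and 108 before the start, and an E-box match 146 before it. The outer Dll1 start held an E-box match 132 bases before it and Jag1 held an E-box match 82 before its start. Promoter entries were matched for 8 of the 10 members. Neither motif was in the windows of Dll4, Notch1, Notch2, Notch3 or Jag2 or before the inner Dll1 start. Over all 32851 mouse promoter windows of the same length 21.6% held the RBPJ core and 13% held the E-box, so 1 of 8 members with the RBPJ core and 3 of 8 with the E-box are a description of these sequences only.

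Among the ligand genes, both Delta genes fell and neither Jagged gene changed by the test. Dll1 (ENSMUSG00000014773, GRCm39 chr17:15587276-15597134, minus strand), a Delta ligand of secretory crypt cells, stood at 89.4, 97.0 and 70.4 CPM (counts per 1e+06 of the scaled library size) in the 3 PBS libraries and at 12.2, 14.6, 17.2 and 15.4 CPM in the 4 TNF libraries. Every PBS library lay far above every TNF library. The mean went from 85.6 ± 13.7 (SD, n = 3) to 14.9 ± 2.09 CPM (n = 4), a 5.75-fold lower level (log2 fold change -2.52 ± 0.14 SE, edgeR adjusted p = 6.25e-09). Dll4 (ENSMUSG00000027314, chr2:119156170-119166443, plus strand), the other Delta ligand that PCs present to stem cells, stood at 70.6, 77.1 and 62.5 CPM after PBS and at 6.72, 10.8, 5.09 and 5.82 CPM after TNF. Here too the groups lay far apart, and TNF replicate 2 was the highest of the TNF libraries. The mean of Dll4 went from 70.1 ± 7.34 to 7.10 ± 2.54 CPM, a 9.86-fold lower level (log2 fold change -3.30 ± 0.21 SE, edgeR adjusted p = 4.4e-08).

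Part of the reads of both Delta genes could belong to a neighbour, since the strand setting of the counting was not given in the sources used here. Of the 3947 exon bases of Dll4, 616 overlap exons of Gm14207, a long noncoding RNA on the other strand with 543 counts in the PBS group and 58 in the TNF group, which was thus lower after TNF as well. Dll1 shares 1369 of its 4960 exon bases with Fam120b on the other strand, which had 2565 and 2212 counts. The part of these overlaps in the counts of Dll4 and Dll1 was not tested.

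Jag1 (ENSMUSG00000027276, chr2:136923373-136958693, minus strand), a Jagged ligand, was measured at 16.2, 18.4 and 15.1 CPM after PBS and at 14.9, 19.3, 18.8 and 22.6 CPM after TNF. The lowest and the highest library both belonged to the TNF group, so the ranges overlap. The log2 fold change of Jag1 was 0.19 ± 0.16 SE with a 95% interval from -0.15 to 0.53 (edgeR adjusted p = 0.323). Jag2 (ENSMUSG00000002799, chr12:112871421-112893437, minus strand), the second Jagged ligand, stood at 9.70, 11.3 and 8.54 CPM after PBS and at 12.8, 7.78, 8.51 and 6.81 CPM after TNF. TNF replicate 1 was above all PBS libraries and the other TNF libraries were below the lowest of them. Its log2 fold change was -0.13 ± 0.23 SE (95% interval from -0.62 to 0.35, edgeR adjusted p = 0.631). Both intervals lie well away from the falls of Dll1 and Dll4.

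The mix of ligand transcripts therefore differed between the groups. Levels of different genes were compared as CPM per kb of merged exons. The summed level of the 4 ligand genes was 40.0, 43.8 and 33.8 CPM per kb in the PBS libraries and 8.48, 10.01, 9.12 and 9.34 CPM per kb in the TNF libraries. Dll1 and Dll4 together supplied 89.3% ± 0.432 (SD, n = 3) of that sum after PBS and 51.8% ± 3.60 (n = 4) after TNF. Jag1 went from 7.12% ± 0.364 to 34.3% ± 4.68 of the sum and Jag2 from 3.55% ± 0.119 to 13.9% ± 5.08, without a call for either gene itself. None of these shares overlapped between the groups. The ratio of Dll1 to Dll4 was 1.01, 1.00 and 0.897 in the PBS libraries, close to even, and 1.45, 1.08, 2.7 and 2.11 in the TNF libraries, higher in all 4. These shares and ratios follow from the members' own values and carry no test.

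**Figure D2:**
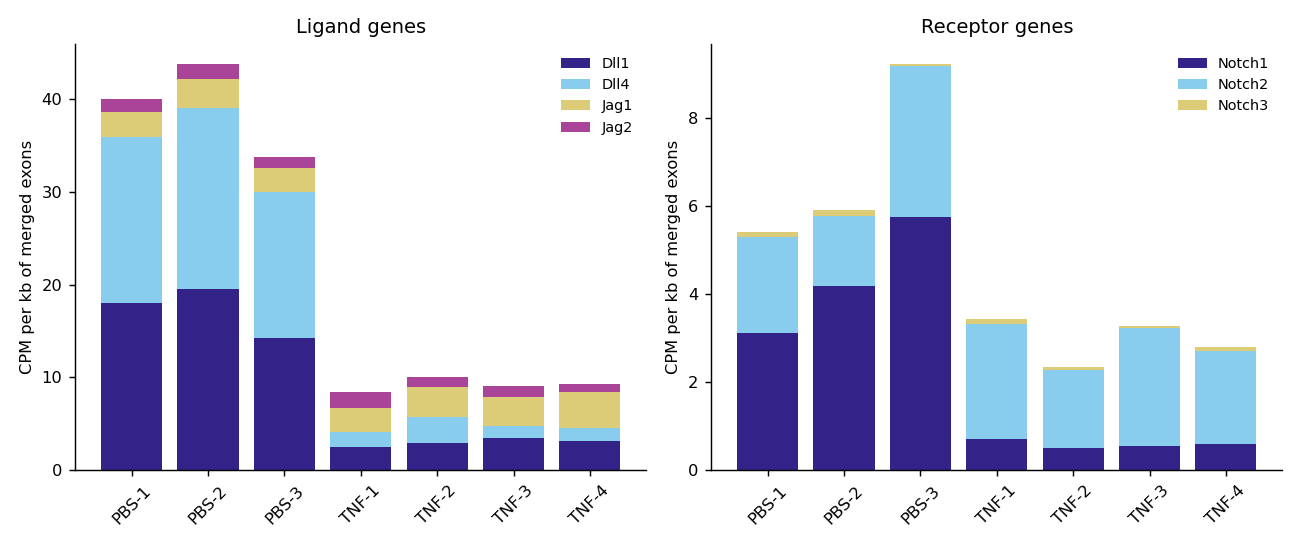
Stacked levels (CPM per kb of merged exons, axes from 0) of the 4 ligand genes (left) and the 3 receptor genes (right) in each library. Delta transcripts fill on average 89.3% of the ligand bars after PBS and 51.8% after TNF, and Notch1 fills on average 63.6% of the receptor bars, which leave out Notch4, after PBS and 19.9% after TNF.

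Among the receptor genes, Notch1 fell and Notch2 and Notch3 were not called. Notch1 (ENSMUSG00000026923, chr2:26347915-26406675, minus strand), the main Notch receptor of crypt stem cells together with Notch2, stood at 44.4, 59.4 and 81.9 CPM in the PBS libraries and at 10.1, 7.13, 7.66 and 8.31 CPM in the TNF libraries. The TNF libraries were close to each other, while the PBS libraries spread more widely and none reached down to the TNF level. Its mean went from 61.9 ± 18.9 (SD, n = 3) to 8.31 ± 1.31 CPM (n = 4), 7.45-fold lower (log2 fold change -2.90 ± 0.20 SE, edgeR adjusted p = 6.71e-08). Exons of the antisense transcript 0610009E02Rik, to which 44 counts in the PBS group and 29 in the TNF group were assigned, overlap 1996 of the 14232 exon bases of Notch1, and the part of this overlap in the counts of Notch1 was not tested.

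Notch2 (ENSMUSG00000027878, chr3:97920800-98057677, plus strand) gave 24.5, 18.0 and 38.6 CPM after PBS and 29.4, 19.9, 30.3 and 23.9 CPM after TNF. The TNF range lay inside the PBS range, and the log2 fold change was -0.062 ± 0.24 SE (95% interval from -0.58 to 0.45, edgeR adjusted p = 0.835). Notch3 (ENSMUSG00000038146, chr17:32339794-32385893, minus strand), best known as the receptor of vessel-wall mural cells, was scarcely detected, with 1.11, 1.12 and 0.265 CPM after PBS and 0.951, 0.648, 0.428 and 0.785 CPM after TNF, or 45 and 48 counts per group in all. At that depth its interval ran from -1.56 to 1.09 on the log2 scale (edgeR adjusted p = 0.754).

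Among Notch1, Notch2 and Notch3, Notch1 made up 57.6%, 70.8% and 62.5% of their summed level (CPM per kb) in the PBS libraries and 20.8%, 21.4%, 16.5% and 20.9% in the TNF libraries. Notch2 made up 34.8% ± 6.85 after PBS and 77.4% ± 3.12 after TNF. The order of these 3 genes was thus Notch1, Notch2, Notch3 in every PBS library and Notch2, Notch1, Notch3 in every TNF library. Their summed level was 6.84 ± 2.07 CPM per kb after PBS and 2.96 ± 0.491 after TNF, without overlap. The ratio of the summed level of the 4 ligand genes to that of the 3 receptor genes was 7.39, 7.43 and 3.66 after PBS and 2.47, 4.28, 2.79 and 3.35 after TNF, with overlap through PBS replicate 3. These sums leave out Notch4, which is not in the group of 10 and had 3.36, 2.65 and 3.82 CPM per kb after PBS and 1.93, 2.29, 2.00 and 1.62 after TNF, above Notch1 in PBS replicate 1 and in all TNF libraries. With Notch4 in the sum, an alternative chosen after seeing the data, the summed receptor level was 10.1 ± 2.53 CPM per kb after PBS and 4.92 ± 0.468 after TNF. The Notch1 share then was 42.9% ± 6.75 and 11.9% ± 1.61 and the Notch2 share 23.3% ± 4.04 and 46.5% ± 5.66, again without overlap. With Dll3 also in the ligand sum, the ratio of ligand to receptor level was 4.50 ± 1.44 after PBS and 1.93 ± 0.292 after TNF and no longer overlapped.

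Hes1 (ENSMUSG00000022528, chr16:29882134-29886643, plus strand), the transcriptional repressor that Notch activity induces, stood at 28.5, 36.0 and 35.1 CPM in the PBS libraries and at 21.3, 29.4, 23.0 and 23.1 CPM in the TNF libraries. TNF replicate 2 lay above PBS replicate 1, so the groups overlap, and the other TNF libraries lay below all PBS libraries. The mean went from 33.2 ± 4.10 to 24.2 ± 3.57 CPM (log2 fold change -0.46 ± 0.14 SE, 95% interval from -0.76 to -0.16, edgeR adjusted p = 0.0115). The call was lost without PBS replicate 2, with a log2 fold change of -0.39 and an edgeR adjusted p of 0.0608. That was the highest of 14 alternatives, whose edgeR or DESeq2 adjusted p ran from 0.0042 to 0.0608. PBS replicate 2 (36.0 CPM) was close to PBS replicate 3 (35.1 CPM), and why the call was lost was not tested. Among all tested genes, 33.3% had a lower log2 fold change than Hes1.

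Of the fringe genes, Lfng fell and Mfng was not called. Lfng (ENSMUSG00000029570, chr5:140593075-140601300, plus strand) stood at 33.1, 40.1 and 28.4 CPM after PBS and at 5.88, 3.24, 6.32 and 2.29 CPM after TNF. All TNF libraries lay far below the PBS libraries. Its mean went from 33.9 ± 5.86 to 4.43 ± 1.97 CPM, 7.64-fold lower (log2 fold change -2.92 ± 0.28 SE, edgeR adjusted p = 3.48e-06), and no annotated exon of another gene overlaps Lfng. Mfng (ENSMUSG00000018169, chr15:78640074-78657718, minus strand) was near the limit of detection at 0.371, 0.916 and 1.06 CPM after PBS and 1.62, 1.47, 1.66 and 1.83 CPM after TNF. Every TNF library was above every PBS library, on 44 and 113 counts per group, but the change missed the threshold (log2 fold change 1.05 ± 0.49 SE, 95% interval from -0.0024 to 2.11, edgeR adjusted p = 0.0795). Per kb, Lfng averaged 13.4 CPM after PBS against 0.214 for Mfng, and 1.75 against 0.451 after TNF.

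Ranked by level (CPM per kb of merged exons), the members ran in PBS libraries from Dll4 (17.8 ± 1.86, SD, n = 3) and Dll1 (17.3 ± 2.76) over Lfng (13.4 ± 2.31), Hes1 (9.83 ± 1.22), Notch1 (4.35 ± 1.33), Jag1 (2.78 ± 0.279), Notch2 (2.40 ± 0.937) and Jag2 (1.39 ± 0.199) to Mfng (0.214 ± 0.0996) and Notch3 (0.0924 ± 0.0545). The libraries of Dll4, Dll1 and Lfng overlapped from each to the next, as did those of Jag1, Notch2 and Jag2 and those of Mfng and Notch3, so those neighbours did not differ beyond their spread, although Lfng lay below both Delta genes within each PBS library. In TNF libraries Hes1 led without overlap (7.17 ± 1.06, n = 4), followed by Jag1 (3.17 ± 0.525), Dll1 (3.00 ± 0.422), Notch2 (2.30 ± 0.431), Dll4 (1.80 ± 0.644), Lfng (1.75 ± 0.779) and Jag2 (1.27 ± 0.374), each overlapping the next. Below a gap came Notch1 (0.584 ± 0.0918) and Mfng (0.451 ± 0.0403), which overlapped, and Notch3 was lowest again (0.0781 ± 0.0246). The Delta ligands thus led the list after PBS and lay among the Jagged genes and Notch2 after TNF, although Hes1 itself was lower.

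Most listed markers of stem, tuft, goblet and enterocyte cells were also lower after TNF, and their part in the fall of the members was not tested. The 7 PC markers were all detected and summed to between 167900 and 272000 CPM after PBS and between 159600 and 287900 CPM after TNF, an overlapping range. Of these 7, Clps and Mptx2 were lower (log2 fold changes -2.27 and -1.07, edgeR adjusted p = 0.00263 and 0.0169), Mmp7 was higher (0.88) and 4 were not called. The 6 stem cell markers summed to 3467 to 4785 CPM after PBS and 1971 to 2717 CPM after TNF with 5 of 6 lower. The stem cell gene Lgr5 went from 155 to 30.8 CPM (log2 fold change -2.32 ± 0.14 SE, edgeR adjusted p = 1.11e-08). The 6 tuft cell markers summed to 1507 to 2467 and 286 to 746 CPM with 6 of 6 lower. The 6 goblet cell markers summed to 10430 to 19240 and 8770 to 9839 CPM with 4 of 6 lower. Among them Fcgbp fell most (2892 to 58.9 CPM), while Muc2 (5367 and 5870 CPM) and Spink4 (4427 and 3239 CPM) were not called. The 6 enterocyte markers summed to 573 to 694 and 238 to 312 CPM with 4 of the 5 tested lower. Most of that sum was Vil1 (605 and 273 CPM). All others averaged at most 8.53 CPM after PBS and were highest in PBS replicate 2. The 6 enteroendocrine markers summed to 28.4 to 91.5 and 21.4 to 31.8 CPM, which overlap, with 2 of 6 lower, where 30.1% of all tested genes were lower.

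Markers of stromal and blood cells were low in all libraries. Of the 10 endothelial markers Kdr and Cldn5 were at 0 in every library and 7 of 10 had under 10 counts in all. Their sum was 4.82 to 9.47 CPM after PBS and 9.55 to 11.3 CPM after TNF, mostly Tek and Vwf. Tek was lower after TNF, at 1.18 to 1.55 CPM against 2.97, 7.03 and 1.91 in the PBS libraries (-1.47 on the log2 scale, edgeR adjusted p = 0.00994), and Vwf was higher, at 8.53 CPM against 2.30 (1.89, adjusted p = 9.9e-06). The part of these cells in the members' changes was not tested. The 8 mural markers summed to 3.77 to 4.99 and 1.06 to 1.71 CPM. The 2 tested, Mcam and Pdgfrb, were lower (-2.31 and -1.76, edgeR adjusted p = 0.00204 and 0.0226). The 6 fibroblast markers summed to 0.106 to 0.204 and 0 to 0.448 CPM with Col1a2 and Lum at 0. The 9 leukocyte markers summed to 24.9 to 33.2 and 16.7 to 26.9 CPM with Cd3e at 0. Of the 4 tested, Ptprc was lower (-0.95, edgeR adjusted p = 0.027) and 3 were not called. The part of mural cells and leukocytes in the members' changes was not tested either.

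**Figure D3:**
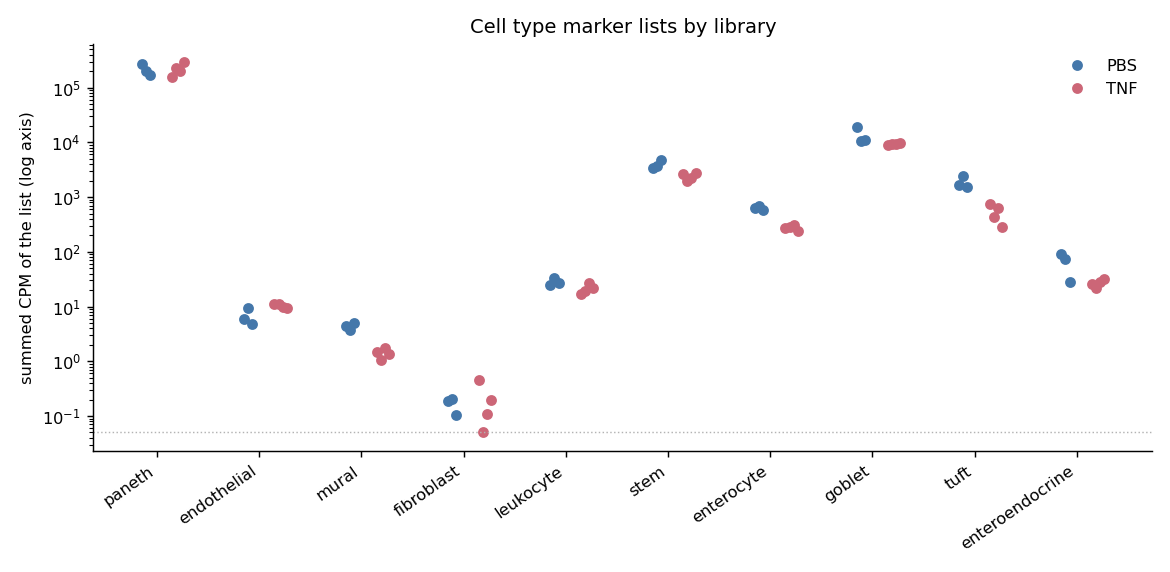
Summed CPM (log axis) of each marker list per library, PBS in blue and TNF in red; the library at 0 for the fibroblast list is drawn on the dotted line. The PC list overlaps between the groups, from 159600 to 287900 CPM in all, while the stem, tuft, enterocyte, goblet and mural lists are lower, and the endothelial list is higher, in all TNF libraries than in any PBS library. The enterocyte sum is mostly Vil1, and the goblet markers Muc2 and Spink4 were not called.

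The rest of the pathway was read from a list of 64 further genes grouped by role, of which 56 were tested. After TNF 16 were higher, 20 were lower and 20 were not called, 64.3% called against 59.6% of all tested genes. Their median log2 fold change was -0.016. With total counts as the only scaling, which moved the median of all genes to -0.16, 11 were higher and 22 were lower.

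Of the 5 remaining receptor, ligand and fringe genes, the 3 that could be tested fell, where 30.1% of all tested genes were lower. Dll3, a divergent Delta protein that does not activate receptors on other cells, stood at 13.0, 11.9 and 11 CPM after PBS and at 0.448, 0.530, 0.214 and 0.393 CPM after TNF. It had the lowest log2 fold change of the whole pathway list (-4.90 ± 0.30 SE, edgeR adjusted p = 1.51e-08), below those of Dll1 and Dll4. Rfng, the radical fringe enzyme, went from 15.2 to 7.20 CPM (-1.08 ± 0.21, adjusted p = 4.64e-04), and Notch4, a receptor best known from endothelium, from 29.0 to 17.3 CPM (-0.74 ± 0.16, adjusted p = 9.67e-04). The noncanonical ligand genes Dlk1 and Dlk2 were too low to test, with 1 and 0 counts in the PBS group and 2 and 0 in the TNF group. Every Delta gene and every tested fringe gene other than Mfng was thus called lower, and neither Jagged gene was.

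Receptor sugars and ligand activation showed calls in both directions. Pofut1, which adds the O-fucose that fringe enzymes extend, fell by 0.83 on the log2 scale (edgeR adjusted p = 4.91e-04), Eogt, which adds GlcNAc to the same repeats, rose by 1.30 (5.14e-06), and the O-glucosyltransferase gene Poglut1 was not called (0.060). All 5 ubiquitin ligase genes listed for ligand endocytosis were called, 2 higher and 3 lower, where 59.6% of all tested genes were called. Mib1, the Mind bomb ligase that ligands need in the sending cell, went from 342 to 238 CPM (-0.53, adjusted p = 8.94e-04), Mib2 from 19.8 to 6.30 CPM (-1.65) and Neurl1b from 24.8 to 13.2 CPM (-0.90). The Neuralized genes Neurl1a and Neurl3 moved the other way, Neurl1a from 10.6 to 47.1 CPM (2.14, adjusted p = 1.07e-06) and Neurl3 from 64.5 to 250 CPM (1.95, adjusted p = 1.75e-08).

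The protease genes named here had smaller log2 fold changes than Dll1 and Dll4. Adam10 and Adam17, which cut the receptor after ligand binding, had log2 fold changes of -0.12 and 0.060 and were not called in edgeR (adjusted p = 0.388 and 0.704). Furin, which cuts the receptor precursor on its way to the surface, rose by 0.66 (adjusted p = 1.15e-04). Of the gamma-secretase genes, Ncstn and Aph1a were higher, by 0.69 and 0.43, and Psen2, Aph1b and Psenen were not called, with log2 fold changes from -0.070 to 0.32. The call of Aph1a was lost under 4 of 14 alternatives, and Aph1c, with 32 and 17 counts, was not tested.

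Of the 9 genes for receptor sorting and turnover, 6 were higher and 1 was lower, where 29.5% of all tested genes were higher and 30.1% lower. Dtx3l, a Deltex family ligase also known from the interferon response, was measured at 43.9 ± 0.158 CPM after PBS and 158 ± 15.6 CPM after TNF (log2 fold change 1.85 ± 0.11 SE, edgeR adjusted p = 1.01e-08). The other Deltex genes Dtx2, Dtx3 and Dtx4 rose by 1.07, 0.81 and 0.75. Numb, an adaptor that counters Notch, and Fbxw7, the ligase subunit that marks the intracellular domain for degradation, rose by 0.36 and 0.35, and Aak1, a kinase of clathrin adaptors, fell by 0.73 on the log2 scale. The calls of Numb, Fbxw7 and Dtx3 were lost under 2, 6 and 3 of 14 alternatives. Itch was not called (-0.23, adjusted p = 0.053) but was called under 5 of 14 alternatives, and Numbl was not called (0.18).

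In the nuclear complex, Rbpj, the DNA-binding partner of the Notch intracellular domain, went from 23.9 to 17.8 CPM (log2 fold change -0.42 ± 0.14 SE, edgeR adjusted p = 0.0161), a call lost under 3 of 14 alternatives. The Mastermind coactivator gene Maml3 was lower (log2 fold change -1.27, adjusted p = 4.72e-07) and Maml1 rose by 0.37 (adjusted p = 0.0241, lost under 5 of 14), while Maml2, Snw1, Kat2a and Kat2b were not called. Without TNF replicate 1 Maml2 was called (-1.85, edgeR adjusted p = 0.0111, over all 14 alternatives 0.0111 to 0.288), and with total counts as the only scaling Kat2b was called (-0.34, adjusted p = 0.0364, over all 14 alternatives 0.0364 to 0.57). Among the corepressor genes, Spen and Ncor1 fell by 1.17 and 0.67, the Groucho family genes Tle3 and Tle4 rose by 0.78 and 0.71, and Cir1, Hdac1, Sap30, Kdm5a and Tle1 had log2 fold changes from -0.20 to 0.12 without a call.

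Among 10 further genes of the HES and HEY families and other targets, 5 could be tested and 4 of these fell, where 30.1% of all tested genes were lower. Nrarp, a feedback inhibitor that Notch activity induces, stood at 11.1, 16.5 and 11.7 CPM after PBS and at 4.70, 4.71, 6.48 and 5.50 CPM after TNF. The groups did not overlap (log2 fold change -1.29 ± 0.21 SE, edgeR adjusted p = 1.14e-04), unlike those of Hes1. Heyl went from 8.0 to 2.10 CPM (-1.93, adjusted p = 1.34e-04) and Hes6, a family member that antagonises HES1, from 45.4 to 16.3 CPM (-1.48, adjusted p = 3.31e-07). Hes2 was lower on few counts, 52 in the PBS group and 6 in the TNF group (-3.37 ± 0.84 SE, adjusted p = 0.00343). Leaving out TNF replicate 3 moved its value to -4.36, and its edgeR or DESeq2 adjusted p ran from 0.0013 to 0.0345 over 13 alternatives. Hes7 was not called. Hes3, Hes5, Hey1, Hey2 and Dtx1 were not tested, with 2, 4, 3, 0 and 0 counts in the PBS group and 0, 14, 10, 0 and 1 in the TNF group.

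The secretory fate genes downstream in the crypt did not share a direction. Atoh1, the factor that commits crypt cells to secretory fates and that HES1 represses, stood at 212 CPM, 189 CPM and 142 CPM after PBS and at 47.1, 38.8, 62.7 and 64.6 CPM after TNF. No TNF library reached the PBS range (log2 fold change -1.77 ± 0.18 SE, edgeR adjusted p = 5.9e-06), so Atoh1 and its repressor Hes1 were both lower. Gfi1, which acts after Atoh1, went from 25.1 to 9.0 CPM (-1.48, adjusted p = 2.33e-05), and the enteroendocrine factor gene Neurog3 from 2.42 to 0.556 CPM (-2.11, adjusted p = 0.0302, lost under 3 of 14 alternatives). Spdef, a maturation factor of goblet cells and PCs, rose from 132 ± 15.8 to 356 ± 104 CPM (1.44 ± 0.20, adjusted p = 6.24e-05). Sox9, which PCs need to form, was at 408 and 520 CPM and was not called (0.35, adjusted p = 0.0567), but was called under 4 of 14 alternatives.

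**Figure D4:**
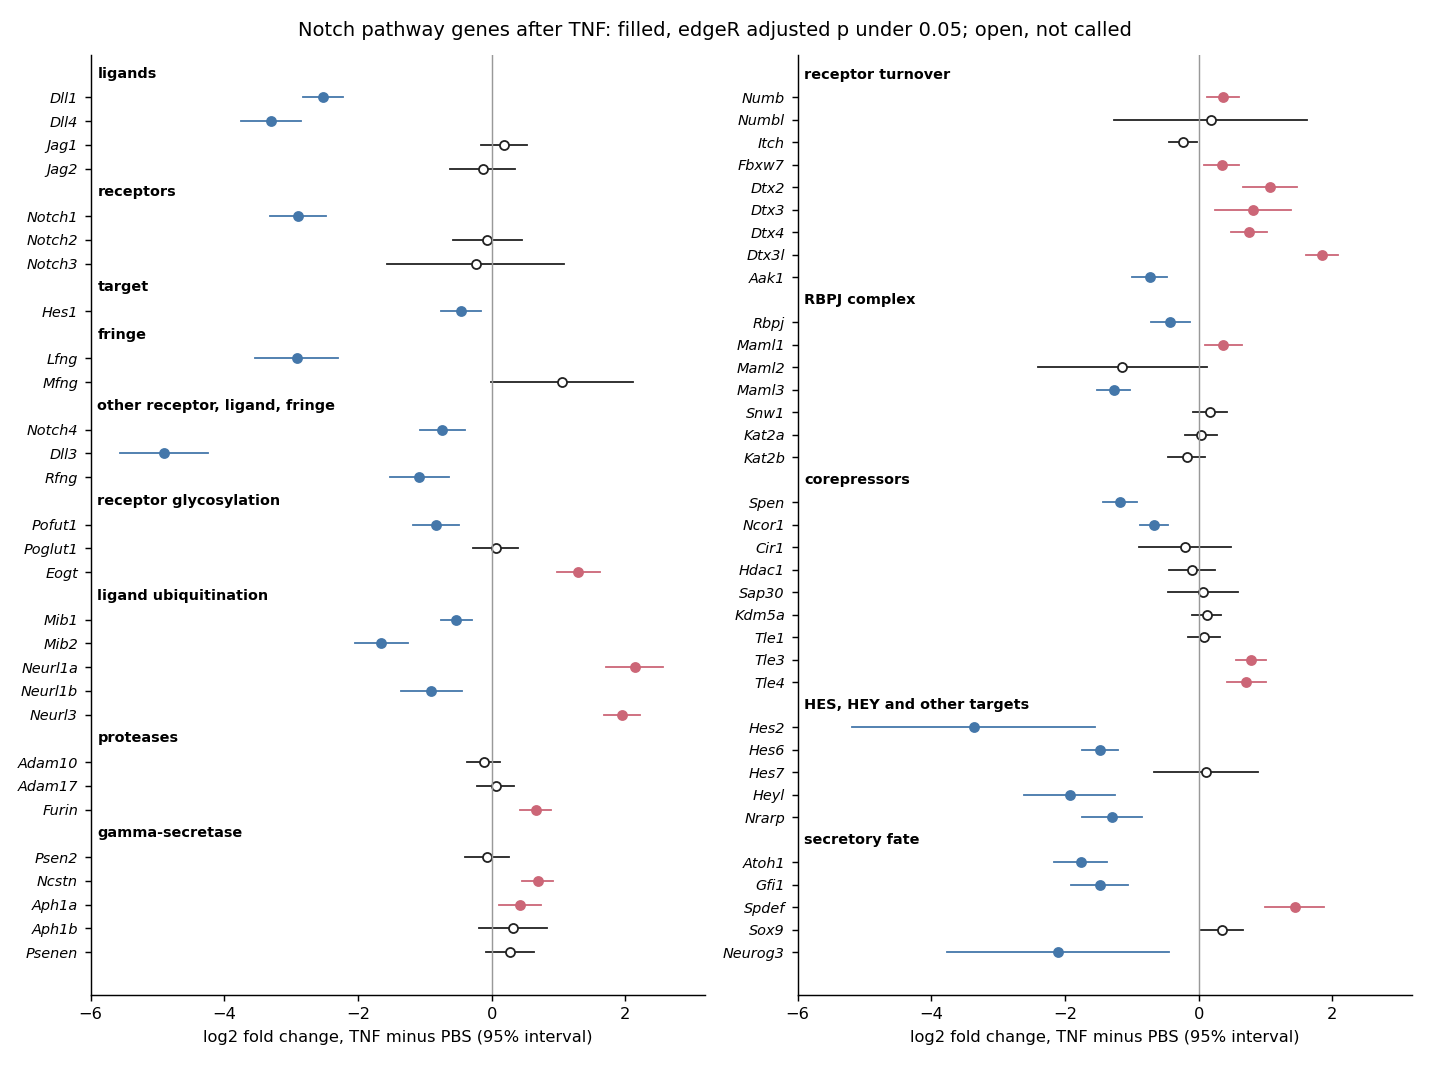
Log2 fold change of TNF over PBS with its 95% interval for the 10 members and the further pathway genes described here, grouped by role; filled points are called by edgeR (blue lower, red higher) and open points are not. Ligand, receptor, fringe and target genes hold the largest falls, from -4.90 for Dll3, while the largest rises are those of Neurl1a (2.14) and Neurl3 (1.95).

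Genes with the most similar pattern over the 7 libraries were looked up for Dll1, Notch1 and Hes1 among 8430 genes averaging 10 CPM or more, by the Pearson correlation of log2(CPM + 1), as a description in which all points share the same group split. Nearest to Dll1 were Ccdc91 (r = 0.998), Cdhr2 (0.998) and Cdkn1b (0.998), and 11.6% of the candidate genes had an r over 0.95 with Dll1. Nearest to Notch1 were Golga1 (0.999), Vwa8 (0.998) and Pik3r1 (0.996), with 8.91% of genes over 0.95. Hes1 was followed less widely, with As3mt (0.979), Usf2 (0.974) and Rhot2 (0.964) nearest and 4 genes over 0.95. With 7 libraries split by group, these shares depend on how large the group gap of a gene is against its spread. They do not measure how common or rare a pattern was beyond that gap.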

How the data were processed

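Raw counts per Ensembl gene for 7 libraries were deposited by the authors as 1 table. The submitters' processing notes name FastQC, Trimmomatic 0.39, STAR 2.7.10a and DESeq2 and the builds mm10 and mm39 without their roles. The annotation and the strand setting of the counting were not given in the sources used here. Symbols, positions and exon lengths came from GENCODE M39, which held 54749 of the 55414 identifiers. Counts were filtered with filterByExpr, scaled by TMM and tested with the robust quasi-likelihood test of edgeR 4.0.16 (R 4.3.3), two-sided, with Benjamini-Hochberg adjustment over 14329 genes. CPM use TMM-scaled library sizes. The members and lists were chosen with earlier results of these data known. Named were all members, any gene of the role lists with at least those of the largest and smallest called change, untested list genes by their counts, and the 3 genes most correlated with Dll1, Notch1 and Hes1. Alternatives were other scalings and filters, DESeq2 1.42.0, a replicate block and leaving out each library. The script was tested on simulated data. A few listed genes are counted in the lists but not reported here by name. The paper at hand does not describe this experiment.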

Additional observations from a re-analysis of the deposited data

Results flagged for a closer look

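In the TNF group of 4 libraries, the gap between the most distant library and its nearest neighbour was compared with the range of the group, by the 95% limit of Dixon's test, for 66 tested members and pathway genes. No member passed the limit. It was passed by 4 values, where chance gives about 1 in 20: Neurl1a was 38.8 CPM in TNF replicate 1, below the others. Maml2 was 1.46 CPM and Kat2b was 39.6 CPM in the same library, Maml2 above and Kat2b below the others. Hes6 was 14.7 CPM in TNF replicate 4, below the others.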

How the results depend on the processing

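Over 14 alternatives (other scalings, filters, DESeq2, a replicate block and each library left out), 139 of 140 values for the members kept their direction or, where not called, stayed without a call. The exception was Hes1 without PBS replicate 2, for which the cause was not tested. Between 4 and 5 members were lower and 0 were higher. For the other pathway genes 743 of 780 values kept their side of the threshold, none of the called ones reversed, and 11 genes gained or lost a call. The labels do not state that the replicate numbers pair the samples. Correlations of deviations for same-numbered libraries were -0.398, -0.047 and -0.227. Those for other pairs of libraries ran from -0.264 to 0.42, and so few values cannot settle whether samples were paired. With the replicate number as a block, 5 members were lower and 0 were higher, and 13 further pathway genes were higher and 19 were lower, against 16 and 20. Over all genes 3553 were higher and 3578 lower with the block, against 4229 and 4314 without it. Depth limits Notch3 and Mfng, with at most 113 counts per group. P-values measure the spread between 3 and 4 mice.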
